A study of Mus musculus with 14 samples.

Results

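The mRNA levels of p62 and of its autophagy and signalling partners were followed across mouse livers and hepatic stellate cells with and without p62. The 10 genes were taken by symbol from 23420 lines in each count table: Sqstm1, which encodes p62, with Nbr1, Optn, Tax1bp1, Calcoco1, Keap1, Nfe2l2, Traf6, Prkci and Rptor. All 10 were present in both tables and passed the filter on low counts. Gene expression was measured by sequencing of polyadenylated RNA in 14 libraries. Liver tissue came from p62KO mice (3 libraries) and WT mice (3 libraries), and every animal, WT included, had received the carcinogen DEN and a high-fat diet (HFD). The other 8 libraries came from hepatic stellate cells, the vitamin A-storing pericytes of the liver, isolated from p62KO or WT livers and immortalized with the SV40 antigen. They were cultured with calcipotriol, a vitamin D receptor agonist, or with vehicle, giving 2 libraries each for p62KO with calcipotriol, p62KO with vehicle, WT with calcipotriol and WT with vehicle. The allele, the age and strain of the mice, the exposure time and the number of cell lines per genotype are not given in the sources used here. Any difference between p62KO and WT stellate cells is therefore a difference between the lines used, and its p-value measures only the spread between libraries, which may be technical.

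As background, p62 is a selective autophagy receptor: it polymerizes through its PB1 domain, binds ubiquitinated cargo and brings it to the Atg8 proteins of the forming autophagosome. It is also a signalling scaffold that binds the E3 ligase TRAF6, atypical protein kinase C and the mTORC1 subunit raptor. By sequestering KEAP1, which marks the transcription factor NRF2 for degradation, p62 can raise NRF2 activity, and Sqstm1 is itself an NRF2 target gene. In liver, p62 is known for accumulating in the hepatocytes of diseased and autophagy-deficient livers.

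The libraries held 17506607 to 20040583 counts in liver and 15207117 to 29079258 in stellate cells. Levels are given as CPM, counts scaled to a common library total after TMM adjustment of the totals within each table. Changes are given as log2 fold change ± SE with a Benjamini-Hochberg adjusted p from edgeR's quasi-likelihood test. A gene passed at an adjusted p under 0.05. Hepatocyte markers summed to 69408 to 124414 CPM in p62KO livers and 76595 to 106660 CPM in WT livers, and to at most 0.157 CPM in every stellate cell library. The stellate cell libraries carried the mesenchymal markers, whose sum over 7 genes differed between genotypes: it ran from 9738 to 15133 CPM in p62KO and 4119 to 4314 CPM in WT cells with calcipotriol, and from 8257 to 8330 CPM in p62KO and 3819 to 3865 CPM in WT cells with vehicle. The part of this difference in the stellate cell results was not tested. Lrat, which makes the retinyl esters of quiescent stellate cells, was at 0 in all 4 groups and Rgs5 at 0 in both WT groups. The p62KO replicates stood further apart than the WT replicates in liver and in stellate cells. In stellate cells the chi-squared per degree of freedom was 190 against 11.7 with calcipotriol and 58 against 1.66 with vehicle. In liver it was 195 and 79.8 for the p62KO pairs with replicate 3 and 55.2 for the pair without it. The WT liver pairs gave 25.1, 27.5 and 34.6. Results are also given without both p62KO calcipotriol replicate 2 and p62KO vehicle replicate 1, called the doubted libraries here because earlier results of these data set them apart; from a pair alone it cannot be told which library departs. That fit leaves 1 library in each p62KO stellate cell group, so its p-values rest on the spread of the WT replicates alone.

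The 250 bases before the RefSeq transcription start are shown for Sqstm1, Nfe2l2 and Keap1, the genes whose mRNA levels the results turn on. They are from GRCm38.p6, printed 5′ to 3′ on the strand of the gene, which is the minus strand for all 3. Sqstm1 covers chr11:50210821-50211070, Nfe2l2 chr2:75704664-75704913 and Keap1 chr9:21239333-21239582. Capitals mark the core of the antioxidant response element, the NRF2 site, searched as TGACNNNGC on both strands.
Sqstm1: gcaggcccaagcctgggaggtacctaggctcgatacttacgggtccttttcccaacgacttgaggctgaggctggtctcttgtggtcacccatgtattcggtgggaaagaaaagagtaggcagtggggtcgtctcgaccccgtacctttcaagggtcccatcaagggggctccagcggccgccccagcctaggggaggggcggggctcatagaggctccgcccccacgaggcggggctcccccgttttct
Nfe2l2: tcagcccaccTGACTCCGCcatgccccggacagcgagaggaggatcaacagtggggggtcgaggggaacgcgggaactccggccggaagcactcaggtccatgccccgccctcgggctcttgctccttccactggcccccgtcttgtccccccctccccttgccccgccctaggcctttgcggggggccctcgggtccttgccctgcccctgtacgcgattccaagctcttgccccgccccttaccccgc
Keap1: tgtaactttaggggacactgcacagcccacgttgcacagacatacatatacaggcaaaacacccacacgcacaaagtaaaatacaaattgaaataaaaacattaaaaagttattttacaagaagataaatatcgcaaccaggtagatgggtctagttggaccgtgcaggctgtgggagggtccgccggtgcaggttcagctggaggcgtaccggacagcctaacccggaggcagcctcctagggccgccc
The Nfe2l2 window held 1 match, starting 240 bases before the start, and the Sqstm1 and Keap1 windows held none. Promoter windows were found for all 10 genes (12 windows), and the other match lay in 1 of the windows of Tax1bp1, 205 bases before its start. The same motif occurred in 3338 of 32851 promoter windows of this length (10.2%), so a match is a description of these letters and not a site shown to be bound.

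Sqstm1 (mm10 chr11:50199366-50210827, minus strand) checked the labels in every library. It stood at 1.56, 2.12 and 1.44 CPM in p62KO livers, against 578, 448 and 583 CPM in WT livers. In stellate cells with calcipotriol it stood at 0.265 and 0.608 CPM in p62KO and at 340 and 339 CPM in WT. With vehicle it stood at 0.835 and 0.211 CPM in p62KO and at 318 and 316 CPM in WT. The genotypes did not overlap in any of the 3 settings. The remaining signal averaged 0.318% of the WT mean in p62KO livers, 0.129% in p62KO cells with calcipotriol and 0.165% in p62KO cells with vehicle, from 25 to 44, 7 to 17 and 4 to 16 counts per library. Sqstm1 shares 580 exon bases with Mrnip on the opposite strand, and whether the counting used strand is not given in the sources used here, so these few counts cannot be assigned to either gene. The log2 fold change was -8.29 ± 0.245 in liver, -9.57 ± 0.489 with calcipotriol and -9.22 ± 0.489 with vehicle (edgeR adjusted p = 2.84e-05, 8.28e-05 and 8.28e-05).

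Among WT libraries the order of Sqstm1 levels was liver (448 to 583 CPM), then calcipotriol-treated (339 to 340 CPM) and vehicle-treated stellate cells (316 to 318 CPM), with no overlap between these neighbours. The 2 tables were scaled separately, so the step between liver and stellate cells was not tested. The step between calcipotriol and vehicle was small, with a log2 fold change of 0.10 ± 0.316 in WT cells (adjusted p = 1; 95% interval -0.621 to 0.818). This SE rests on a spread shared by all stellate cell groups, including p62KO libraries with few Sqstm1 counts. It is therefore not the spread of the WT replicates. Among the p62KO groups, liver (1.44 to 2.12 CPM) lay above the stellate cells (0.211 to 0.835 CPM), and the calcipotriol and vehicle groups overlapped.

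**Figure D1:**
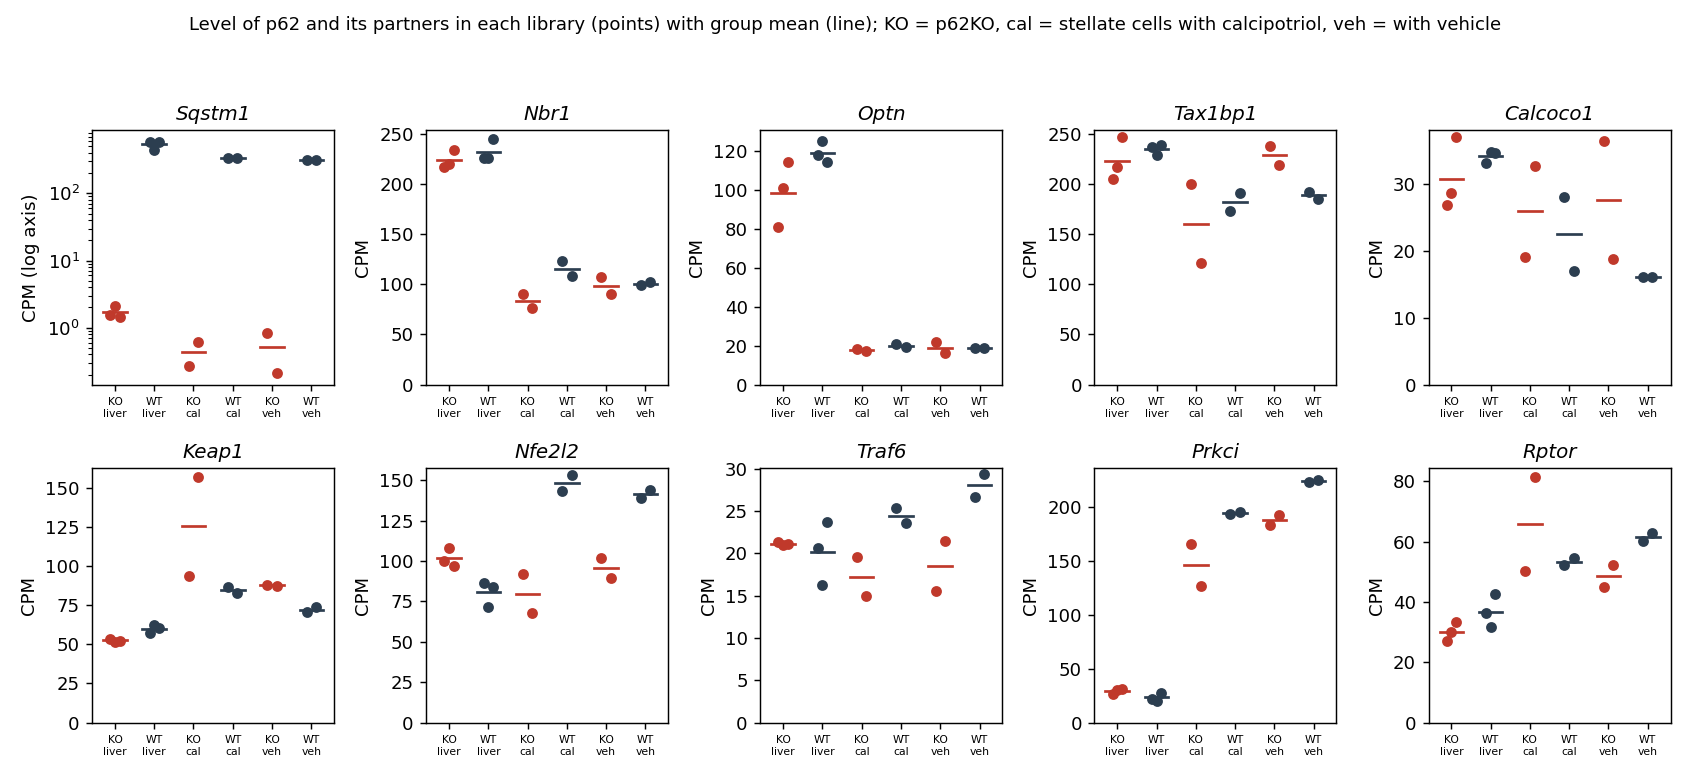
Level of each of the 10 genes in CPM (vertical axis, logarithmic for Sqstm1 and linear from 0 for the others) in every library (points), with the group mean (line), for p62KO (red) and WT (dark) in liver and in stellate cells with calcipotriol or vehicle. Sqstm1 separates the genotypes in every setting, Nfe2l2 is higher in p62KO livers and lower in p62KO stellate cells, and the points of the other receptors mostly overlap.

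Of the 9 partners, none passed in liver, none passed in vehicle-treated stellate cells and 1, Nfe2l2, passed in calcipotriol-treated stellate cells when p62KO was set against WT. Counting Sqstm1, 1 of 10 genes passed in liver, where 7.94% of 12851 tested genes passed, 2 of 10 with calcipotriol, where 19.8% of 12681 passed, and 1 of 10 with vehicle, where 12.9% passed. Fits that leave 1 library in a p62KO stellate cell group are given here as effect sizes only. Without both doubted libraries, the log2 fold change with calcipotriol was -0.37 for Nbr1 and -0.25 for Prkci. With vehicle it was -0.65 for Nfe2l2 and 0.28 for Keap1 in that fit. Without p62KO calcipotriol replicate 1, the values with calcipotriol included 0.89 for Keap1 and 0.61 for Rptor. They also included -0.59 for Nbr1, -0.58 for Tax1bp1, -0.70 for Traf6 and -0.62 for Prkci. The median size of the log2 fold change of the 9 partners was 0.19 in liver, 0.42 with calcipotriol and 0.28 with vehicle, beside 0.31, 0.50 and 0.40 over all tested genes. In bulk tissue, fewer cells of a type and less RNA per cell cannot be told apart.

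**Figure D2:**
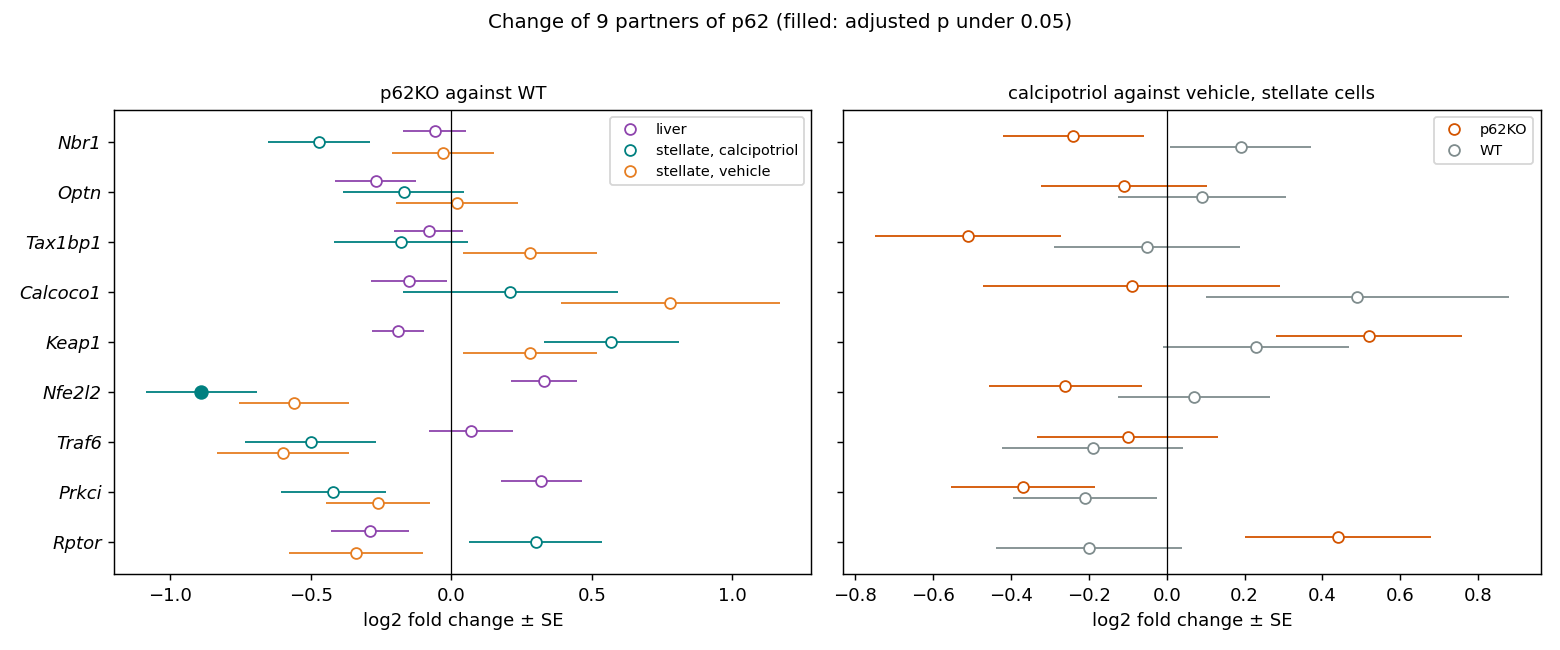
Log2 fold change ± SE (horizontal axes) of the 9 partners of p62, for p62KO against WT (left) and for calcipotriol against vehicle (right). Filled points passed at an adjusted p under 0.05, which Nfe2l2 in calcipotriol-treated stellate cells did (-0.89), and Nfe2l2 and Keap1 lie on opposite sides of 0 in each of the 3 comparisons between genotypes.

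None of the other 4 autophagy receptors passed in any comparison between genotypes. Nbr1 (chr11:101552149-101581951), a relative of p62 with its own PB1 and ubiquitin-binding domains, stood at 217, 220 and 234 CPM in p62KO livers, against 226, 226 and 245 CPM in WT livers. These groups overlapped, and the log2 fold change was -0.06 ± 0.113 (adjusted p = 0.754; 95% interval -0.322 to 0.209). In stellate cells Nbr1 stood at 90.1 and 76.4 CPM in p62KO and 123 and 108 CPM in WT with calcipotriol, a change of -0.47 ± 0.182 that did not pass (adjusted p = 0.0964). With vehicle it stood at 107 and 90.3 CPM in p62KO and 99.5 and 102 CPM in WT (-0.03 ± 0.181, adjusted p = 0.922). The order of its levels was both liver groups, which overlapped, above all stellate cell groups.

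Optn (chr2:5020642-5064051) encodes optineurin, a ubiquitin-binding receptor that is phosphorylated by the kinase TBK1. It stood at 80.7, 101 and 114 CPM in p62KO livers and at 118, 125 and 114 CPM in WT livers, groups that met at 114 CPM (-0.27 ± 0.145, adjusted p = 0.233). It was far lower in stellate cells. With calcipotriol it stood at 18.2 and 17.1 CPM in p62KO and 20.6 and 19.2 CPM in WT, which did not overlap (-0.17). With vehicle it stood at 21.9 and 16.0 CPM in p62KO and 18.6 and 18.8 CPM in WT, which overlapped (0.02). Neither change passed. Tax1bp1 (chr6:52713729-52766780), a ubiquitin-binding receptor that also restrains NF-kB signalling, stood at 205, 217 and 247 CPM in p62KO livers and 237, 229 and 239 CPM in WT livers (-0.08 ± 0.123, adjusted p = 0.688). In stellate cells Tax1bp1 stood at 200 and 121 CPM in p62KO and 173 and 191 CPM in WT with calcipotriol, and at 238 and 219 CPM in p62KO and 192 and 185 CPM in WT with vehicle. Neither difference passed (adjusted p = 0.605 with calcipotriol and 0.481 with vehicle), and its 14 libraries spanned a narrow range from 121 to 247 CPM.

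Calcoco1 (chr15:102706777-102722178), a receptor for autophagy of the endoplasmic reticulum, was the least abundant of these receptors in liver, at 26.8, 28.6 and 36.9 CPM in p62KO and 33.1, 34.8 and 34.6 CPM in WT livers (-0.15 ± 0.136, adjusted p = 0.459). In stellate cells the libraries of 3 of the 4 groups lay well apart: it stood at 19.1 and 32.7 CPM in p62KO and 28.0 and 16.9 CPM in WT with calcipotriol, and at 36.3 and 18.8 CPM in p62KO and 16.0 and 16.1 CPM in WT with vehicle. Its largest change, 0.78 ± 0.389 with vehicle, did not pass (adjusted p = 0.219; 95% interval -0.104 to 1.67).

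Per kilobase of exon, the scale on which genes can be compared, Sqstm1 was the most abundant of these 5 receptor mRNAs in every WT library. Sqstm1 made up 62.5 ± 3.56% of the summed level of the 5 receptors in WT livers (SD, n = 3), 69.6 ± 0.839% in WT stellate cells with calcipotriol and 69.6 ± 0.0279% with vehicle (SD, n = 2 each). The sum of the 5 was 87.0 ± 8.64 CPM per kb in p62KO livers against 255 ± 22.7 in WT livers. With calcipotriol it was 37.5 ± 5.42 in p62KO against 145 ± 2.23 CPM per kb in WT cells, and with vehicle 47.2 ± 6.44 against 136 ± 0.666. Without Sqstm1, the sum of the other 4 was 86.5 ± 8.67 in p62KO livers against 95.0 ± 1.05 CPM per kb in WT livers, ranges that overlapped. In stellate cells this sum ran from 33.5 to 41.3 in p62KO against 42.9 to 45.6 CPM per kb in WT with calcipotriol, and from 42.6 to 51.5 against 41.2 to 41.4 with vehicle. Neither pair overlapped, with p62KO below WT with calcipotriol and above it with vehicle. Both pairs of ranges nearly met, with 2 libraries per group, and neither difference was tested.

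The receptor that led the remainder in p62KO livers depended on the length used. Per kilobase of exon, in p62KO livers Nbr1 held 37.6 ± 2.38% of the summed level, Optn 30.0 ± 2.37% and Tax1bp1 25.7 ± 0.450% (SD, n = 3). In p62KO stellate cells Tax1bp1 led, with 42.2 ± 8.66% with calcipotriol and 48.7 ± 3.72% with vehicle, followed by Nbr1 with 32.3 ± 0.916% and 30.4 ± 0.600% (SD, n = 2 each). Optn held 12.6 ± 1.24% there with calcipotriol and 10.7 ± 0.892% with vehicle. With the longest transcript as the length, Tax1bp1 led in p62KO livers (35.5 ± 0.518%) ahead of Nbr1 (31.7 ± 2.01%), and it also led in p62KO stellate cells, with 52.6 ± 9.45% with calcipotriol and 59.3 ± 3.96% with vehicle. With that length the Sqstm1 share was 55.3% in WT livers, 60.7% in WT cells with calcipotriol and 60.4% with vehicle.

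**Figure D3:**
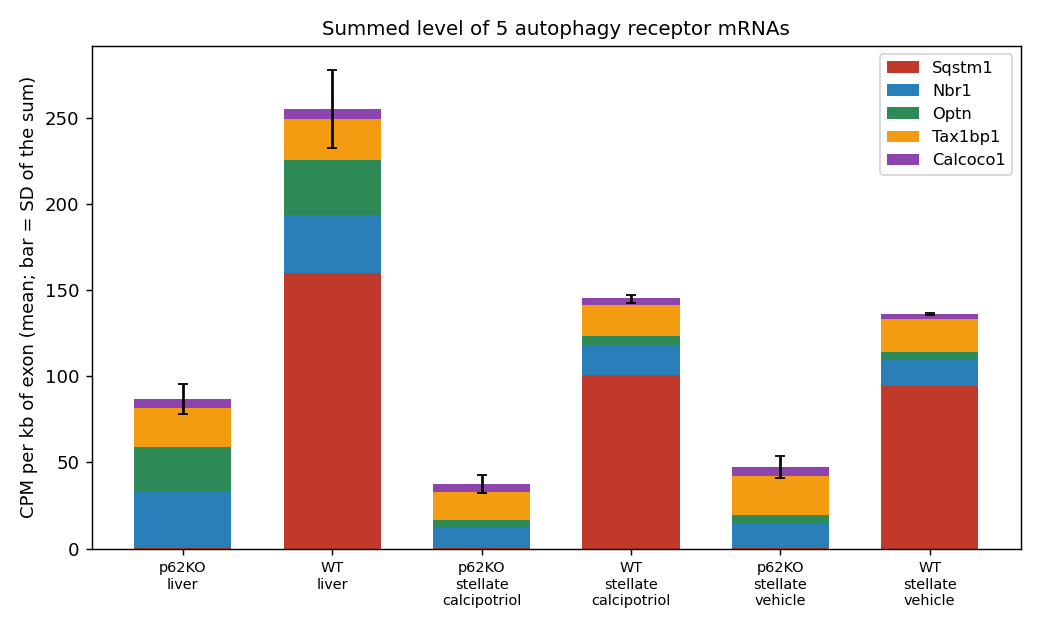
Mean level in CPM per kb of exon (vertical axis) of 5 autophagy receptor mRNAs, stacked, in each of the 6 groups, with bars for the SD of the sum over 3 liver or 2 stellate cell libraries. Sqstm1 fills most of each WT bar (62.5% to 69.6%), and what is left in p62KO is near the WT level of the other 4.

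Among the signalling partners, Nfe2l2 and Keap1 lay on opposite sides of the WT level, and each lay on opposite sides in liver and in stellate cells, with 1 of these 6 differences past the threshold. Nfe2l2 (chr2:75675513-75704641), which encodes NRF2, the master regulator of antioxidant genes, stood at 100, 108 and 96.7 CPM in p62KO livers, against 86.5, 71.8 and 83.8 CPM in WT livers. All 3 p62KO livers lay above all 3 WT livers, and the change of 0.33 ± 0.116 did not pass (adjusted p = 0.101). In stellate cells with calcipotriol Nfe2l2 stood at 91.9 and 67.8 CPM in p62KO, against 143 and 153 CPM in WT, and it fell by 0.89 ± 0.197 on the log2 scale (adjusted p = 0.0198). With vehicle it stood at 102 and 89.3 CPM in p62KO, against 139 and 144 CPM in WT, a change of -0.56 ± 0.196 that did not pass (adjusted p = 0.0969). The 4 p62KO libraries lay below the 4 WT libraries. The call with calcipotriol was lost without any 1 of the 4 WT libraries (adjusted p from 0.0513 to 0.125) and in a fit of the 4 calcipotriol libraries alone (adjusted p = 0.0706), with the change between -0.94 and -0.86. It passed without each p62KO library, with DESeq2 and with chromosome medians removed. The vehicle change passed without p62KO calcipotriol replicate 1 or 2 (adjusted p = 0.012 and 0.0123) and in a fit of the 4 vehicle libraries alone (adjusted p = 0.0377).

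Keap1 (chr9:21229730-21239361), the adaptor that presents NRF2 to the CUL3 ubiquitin ligase, stood at 53.6, 51.7 and 52.0 CPM in p62KO livers, against 57.0, 62.2 and 60.7 CPM in WT livers. All 3 p62KO livers were lower, and the change of -0.19 ± 0.0941 did not pass (adjusted p = 0.195). With calcipotriol it stood at 93.7 and 157 CPM in p62KO cells, against 86.4 and 83.0 CPM in WT cells, and with vehicle at 87.8 and 87.3 CPM, against 70.4 and 73.9 CPM. The 4 p62KO libraries lay above the 4 WT libraries, and neither change passed (0.57 ± 0.239, adjusted p = 0.12 with calcipotriol; 0.28 ± 0.239, adjusted p = 0.478 with vehicle). The calcipotriol value rested on p62KO calcipotriol replicate 2: without it the change was 0.13. Keap1 shares 510 exon bases with Gm16754 on the opposite strand.

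As a ratio of levels per kb, Nfe2l2 to Keap1 was 2.40 ± 0.159 in p62KO livers and 1.67 ± 0.227 in WT livers (SD, n = 3 each). In stellate cells it was 0.873 ± 0.480 in p62KO and 2.16 ± 0.170 in WT with calcipotriol, and 1.35 ± 0.125 in p62KO and 2.42 ± 0.0165 in WT with vehicle (SD, n = 2 each). The lowest ratio, 0.533, was that of p62KO calcipotriol replicate 2. The ratio was formed after the values of both genes were seen and was not tested.

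Across the libraries, 3 of 10 genes did not overlap between p62KO and WT livers (Sqstm1 and Keap1 lower, Nfe2l2 higher), where 37.6% of all tested genes did not. In stellate cells, 5 of 10 genes separated all 4 p62KO from all 4 WT libraries (Sqstm1, Nfe2l2, Traf6 and Prkci lower, Keap1 higher), where 37.0% of tested genes did. These counts were near the share of all genes that behaved so.

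The NRF2 target genes were read beside Nfe2l2. In p62KO livers 4 of 24 listed targets fell and 1 rose, where 7.94% of all tested genes passed. The median log2 fold change was -0.37 over the list and 0.02 over all tested genes. Of the 24, 4 had a log2 fold change above 0. Nqo1, a quinone reductase, averaged 9.61 ± 0.569 CPM in p62KO livers and 20.1 ± 5.32 CPM in WT livers (SD, n = 3 each; -1.07 ± 0.194, adjusted p = 0.0346). Gstm1, a glutathione transferase, averaged 569 ± 192 CPM in p62KO and 1592 ± 391 CPM in WT livers (-1.48 ± 0.309, adjusted p = 0.0407). Abcc3, an exporter of conjugated compounds, averaged 206 ± 27.0 CPM in p62KO and 364 ± 26.2 CPM in WT livers. The gene that rose was G6pdx, the entry enzyme of the pentose phosphate pathway, at 11.1 ± 1.79 CPM in p62KO and 5.51 ± 0.635 CPM in WT livers (1.02 ± 0.176, adjusted p = 0.0331). None of the 4 passed when any 1 liver other than p62KO replicate 3 was left out, in fits where only 3 to 110 genes passed in all. Without that replicate 12 targets fell and 1 rose, where 3669 genes passed in all.

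In stellate cells the targets did not move together. With calcipotriol 1 of 24 rose and 1 fell (median 0.02, against -0.01 over all tested genes), and with vehicle 2 rose and 1 fell (median 0.08, against 0.03). Of all tested genes 19.8% passed with calcipotriol and 12.9% with vehicle. Slc7a11, the cystine transporter, rose in both, to 34.0 ± 17.0 CPM in p62KO against 9.93 ± 0.257 CPM in WT with calcipotriol and to 43.0 ± 16.2 against 9.88 ± 0.434 CPM with vehicle (SD, n = 2 each). Txnrd1, the cytosolic thioredoxin reductase, fell in both, to 478 ± 3.50 CPM against 968 ± 95.2 CPM with calcipotriol and to 412 ± 86.8 against 1069 ± 0.561 CPM with vehicle. Nqo1 rose with vehicle, at 68.6 ± 30.4 CPM in p62KO and 16.4 ± 0.595 CPM in WT, and did not pass with calcipotriol (0.79 ± 0.316, adjusted p = 0.106). Bach1, a repressor that competes with NRF2 for its sites, was the gene of the KEAP1-NRF2 regulators that passed, 1 of 12 in each comparison, and it fell by 0.78 ± 0.180 with calcipotriol and by 0.66 ± 0.180 with vehicle. Both Bach1 calls were lost with chromosome medians removed (adjusted p = 0.0507 with calcipotriol and 0.0569 with vehicle), and the vehicle call also without the filter on low counts (adjusted p = 0.068) and with the replicate block (adjusted p = 0.0587). The fit without both doubted libraries leaves 1 library in each p62KO stellate cell group, so no count of targets is read from it.

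**Figure D4:**
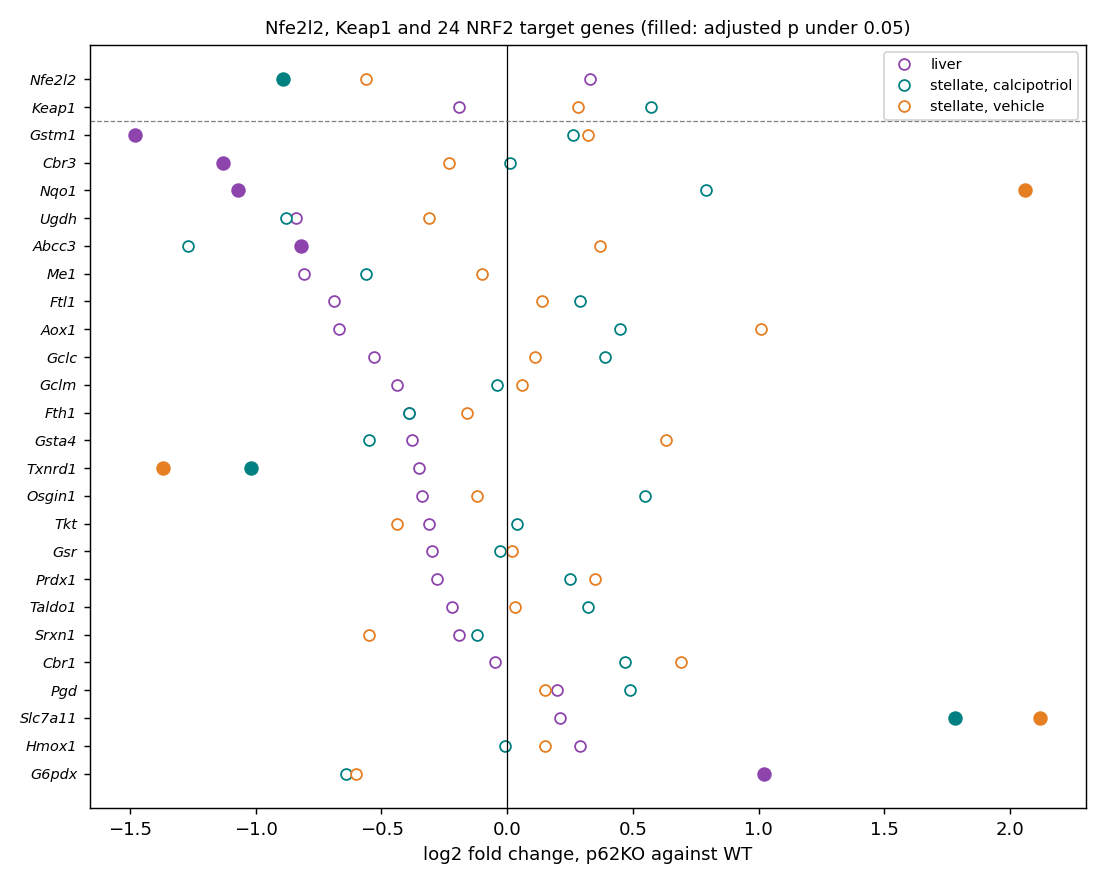
Log2 fold change, p62KO against WT (horizontal axis), of Nfe2l2, Keap1 and 24 NRF2 target genes (rows, targets ordered by their liver value) in liver and in stellate cells with calcipotriol or vehicle. Filled points passed at an adjusted p under 0.05. Most liver points lie left of 0 (median -0.37), while the stellate cell points scatter on both sides (medians 0.02 and 0.08).

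Traf6 (chr2:101678429-101701669), the E3 ligase that p62 helps to polymerize in NF-kB signalling, was nearly constant in p62KO livers at 21.3, 21.0 and 21.1 CPM, against 20.6, 16.2 and 23.7 CPM in WT livers (0.07 ± 0.148, adjusted p = 0.781). In stellate cells Traf6 stood at 19.5 and 15.0 CPM in p62KO, against 25.3 and 23.6 CPM in WT with calcipotriol (-0.50 ± 0.233, adjusted p = 0.149). With vehicle it stood at 15.5 and 21.5 CPM in p62KO, against 26.7 and 29.3 CPM in WT (-0.60 ± 0.234, adjusted p = 0.13). The 4 p62KO libraries lay below the 4 WT libraries, and neither change passed.

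Of the 18 listed TRAF6 and NF-kB signalling genes, none passed in liver (median 0.13). In stellate cells 2 fell and none rose with calcipotriol, where 19.8% of all tested genes passed, and 2 fell and 1 rose with vehicle, where 12.9% passed, so neither count stands out from the background. The genes that fell were Ube2n, the ubiquitin-conjugating enzyme that works with TRAF6, and Tab2, the adaptor that reads the chains TRAF6 builds. Ube2n averaged 48.6 ± 13.2 CPM in p62KO and 155 ± 12.1 CPM in WT with calcipotriol, and 74.1 ± 0.749 CPM in p62KO and 174 ± 6.15 CPM in WT with vehicle (SD, n = 2 each). Tab2 averaged 139 ± 25.3 CPM in p62KO and 313 ± 23.5 CPM in WT with calcipotriol, and 151 ± 11.6 and 350 ± 3.73 CPM with vehicle. Nfkbia, the NF-kB inhibitor that NF-kB itself induces, rose with vehicle, but its p62KO libraries stood at 51.0 and 142 CPM against 28.2 and 31.9 CPM in WT.

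Ube2n, Tab2, Txnrd1 and Tbk1 all lie on chromosome 10, whose tested genes had a median log2 fold change of -0.71 with calcipotriol and -0.64 with vehicle in p62KO stellate cells. With chromosome medians removed, Ube2n still passed with calcipotriol (-0.98, adjusted p = 0.0203) and not with vehicle (-0.58, adjusted p = 0.112). Tab2 passed in neither (adjusted p = 0.113 with calcipotriol and 0.101 with vehicle), nor did Txnrd1 (adjusted p = 0.298 and 0.0736).

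Prkci (chr3:30995747-31052959), the iota isoform of atypical protein kinase C that binds p62 through PB1 domains, stood far higher in stellate cells than in liver, a step between separately scaled tables that was not tested. It stood at 26.2, 30.6 and 31.0 CPM in p62KO livers and 22.3, 20.1 and 27.8 CPM in WT livers, which overlapped (0.32 ± 0.145, adjusted p = 0.169). In stellate cells Prkci stood at 165 and 126 CPM in p62KO, against 193 and 195 CPM in WT with calcipotriol (-0.42 ± 0.186, adjusted p = 0.138). With vehicle it stood at 183 and 192 CPM in p62KO, against 223 and 225 CPM in WT (-0.26 ± 0.185, adjusted p = 0.395). The 4 p62KO libraries lay below the 4 WT libraries by a small margin. Chromosome 3, where Prkci lies, had a median of 0.21 with calcipotriol and 0.43 with vehicle, and with chromosome medians removed Prkci passed in both (-0.66, adjusted p = 0.0325 with calcipotriol; -0.62, adjusted p = 0.045 with vehicle). None of the 12 listed aPKC and PB1 partners passed in any of the 3 comparisons between genotypes (medians 0.20 in liver, 0.20 with calcipotriol and -0.07 with vehicle); the smallest p with calcipotriol was that of Map3k2, a PB1-domain kinase (-1.02 ± 0.361, adjusted p = 0.0781).

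Rptor (chr11:119602905-119899576) encodes raptor, the mTORC1 subunit that recruits substrates. It stood at 27.2, 29.9 and 33.2 CPM in p62KO livers and 36.2, 31.6 and 42.6 CPM in WT livers, which overlapped (-0.29 ± 0.140, adjusted p = 0.193). In stellate cells Rptor stood at 50.2 and 81.5 CPM in p62KO and 52.3 and 54.4 CPM in WT with calcipotriol (0.30 ± 0.238, adjusted p = 0.376). With vehicle it stood at 45.0 and 52.3 CPM in p62KO and 60.1 and 62.8 CPM in WT (-0.34 ± 0.239, adjusted p = 0.384). The high p62KO value with calcipotriol was again that of replicate 2.

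Of the 21 listed mTORC1 components and regulators, 20 were tested in liver, where 1 rose and 1 fell and 7.94% of all tested genes passed. Rragd, a Rag GTPase that places mTORC1 on the lysosome, averaged 14.6 ± 7.55 CPM in p62KO and 4.57 ± 1.31 CPM in WT livers, and Lamtor4, a subunit of its Ragulator anchor, 34.0 ± 0.360 and 46.3 ± 1.07 CPM (SD, n = 3 each). In stellate cells 3 rose and 1 fell with calcipotriol (median 0.36), and 3 rose and none fell with vehicle (median 0.17), counts near the 19.8% and 12.9% of all tested genes that passed there. Eif4ebp1, a translation repressor that mTORC1 phosphorylates, rose in both, to 274 ± 83.0 CPM in p62KO against 72.7 ± 10.1 CPM in WT with calcipotriol (1.92 ± 0.248, adjusted p = 0.00289) and to 153 ± 22.6 against 73.7 ± 1.08 CPM with vehicle. The Ragulator subunit Lamtor2 also rose in both, by 0.82 ± 0.227 with calcipotriol and 1.09 ± 0.230 with vehicle, with Lamtor5 on the first list and Lamtor3 on the second. Rragb was the gene that fell, at 2.48 ± 0.568 CPM in p62KO and 10.4 ± 2.69 CPM in WT with calcipotriol. With chromosome medians removed, Eif4ebp1 passed with calcipotriol (adjusted p = 0.005) and not with vehicle (0.88, adjusted p = 0.056), and the Lamtor genes passed in neither comparison.

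In liver none of 16 tested other receptors and none of 12 Atg8 proteins and receptor kinases passed (medians -0.13 and -0.15). Fundc1, a mitophagy receptor, had the smallest p of the first list there, at 13.2 to 15.5 CPM in p62KO and 10.5 to 11.4 CPM in WT livers (0.35 ± 0.122, adjusted p = 0.0998). In stellate cells 2 of 16 other receptors rose and 4 fell with calcipotriol (median -0.41), where 19.8% of all tested genes passed. With vehicle none rose and 1 fell (median -0.12), where 12.9% passed. The mitophagy receptors Bnip3 and Bnip3l fell with calcipotriol, Bnip3 to 10.8 ± 6.19 CPM in p62KO against 34.2 ± 3.41 CPM in WT and Bnip3l to 32.7 ± 17.0 against 85.4 ± 3.31 CPM (SD, n = 2 each). Fam134b, a receptor for autophagy of the endoplasmic reticulum, stood at 23.2 ± 7.65 CPM in p62KO and 61.9 ± 7.16 CPM in WT (-1.42 ± 0.251, adjusted p = 0.00911). Fkbp8, another mitophagy receptor, and the glycogen receptor Stbd1 rose, by 0.95 ± 0.271 and 0.64 ± 0.188. Wdfy3, which encodes the p62-binding adaptor ALFY, was the gene that fell with vehicle, to 80.3 ± 17.7 CPM in p62KO against 184 ± 1.62 CPM in WT.

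Tbk1, the kinase that phosphorylates p62 and optineurin, fell in p62KO stellate cells to 44.8 ± 6.65 CPM against 114 ± 5.13 CPM in WT with calcipotriol (-1.35 ± 0.180, adjusted p = 0.00329) and to 55.3 ± 2.31 against 122 ± 8.02 CPM with vehicle (-1.14 ± 0.179, adjusted p = 0.00699). Rb1cc1, which encodes FIP200, a scaffold of the ULK complex that p62 binds, fell with calcipotriol, at 51.7 and 144 CPM in p62KO against 305 and 344 CPM in WT. With chromosome medians removed, Tbk1 passed with calcipotriol (-0.66, adjusted p = 0.0369) and not with vehicle (-0.49, adjusted p = 0.103). Tbk1 and Rb1cc1 were the 2 of 12 Atg8 proteins and receptor kinases that passed with calcipotriol, and Tbk1 the 1 with vehicle. Of all tested genes 19.8% and 12.9% passed there.

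Many calls on these listed genes were lost when 1 library was left out. The sign was the same in every such fit for all 6 named genes in liver, 17 with calcipotriol and 12 with vehicle. This could hardly be otherwise, since they were named for a small p and their p62KO and WT libraries did not overlap. The log2 fold change stayed within 1.5 times its value for 6, 13 and 11 of them. The others were Fkbp8, Lamtor2, Rb1cc1 and Slc7a11 with calcipotriol and Nfkbia with vehicle. In stellate cells some of these fits left out a library of the other treatment, which hardly enters the fold change. Of the 6 named here that passed in liver, none passed without any 1 liver other than p62KO replicate 3, and all 6 passed without that one. Of 17 that passed with calcipotriol, 3 (Tbk1, Ube2n and Eif4ebp1) passed in each of the 8 fits that left out 1 library, and those were the 3 left without WT calcipotriol replicate 1 or 2. Of 12 that passed with vehicle, none was left without WT vehicle replicate 1 or 2. The fit without both doubted libraries leaves 1 library in each p62KO stellate cell group, so no count of these genes is read from it. With chromosome medians removed 9 of 17 passed with calcipotriol and 3 of 12 with vehicle (Nqo1, Slc7a11 and Nfkbia). Besides those given above, the calls lost were those of Fkbp8 (adjusted p = 0.0629), Bnip3l (adjusted p = 0.0645) and Rxrb (adjusted p = 0.0942) with calcipotriol and Wdfy3 (adjusted p = 0.0517) with vehicle.

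In liver, markers of other cells differed between genotypes beside these values. Of the 6 hepatocyte markers 1 passed, lower in p62KO livers, and the median log2 fold change of the list was -0.01. Stellate cell and myofibroblast markers summed to 230 to 512 CPM in p62KO livers and 108 to 115 CPM in WT livers (3 of 7 rose), and macrophage markers to 344 to 403 CPM in p62KO and 143 to 255 CPM in WT livers (3 of 6 rose). Cholangiocyte markers summed to 18.0 to 47.7 CPM in p62KO and 9.82 to 14.9 CPM in WT livers (1 of 5 rose), and endothelial markers to 124 to 220 and 99.0 to 162 CPM (none of 5 passed). Of all tested genes 7.94% passed in this comparison. No marker was at 0 in either group, and the part of the markers in the liver values was not tested.

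With calcipotriol against vehicle, none of the 10 genes passed in p62KO cells and none in WT cells, and none passed the test of the difference between the 2 responses; of all 12681 tested genes 0 passed in each of these comparisons (0%). At an unadjusted p under 0.05 stood 1714 genes (13.5%) in p62KO, 301 (2.37%) in WT and 677 (5.34%) for the difference, none of the 10 genes among them. DESeq2 called 53, 16 and 0 genes. The 0 in WT depended on the spread shared with p62KO cells. In a fit of only the 4 libraries compared, 345 genes passed in WT and 0 in p62KO, with 0 of the 10 genes in either. In p62KO cells the log2 fold changes of the 9 partners ran from -0.51 ± 0.239 for Tax1bp1 (adjusted p = 0.364) to 0.52 ± 0.238 for Keap1 (adjusted p = 0.363). In WT cells they ran from -0.21 ± 0.185 for Prkci to 0.49 ± 0.389 for Calcoco1 (adjusted p = 1 for each). Keap1 was higher with calcipotriol than with vehicle in every library of both genotypes, at 93.7 and 157 against 87.8 and 87.3 CPM in p62KO and at 86.4 and 83.0 against 70.4 and 73.9 CPM in WT. Prkci was lower in every library of both genotypes, and libraries failed to overlap in 40.4% of all tested genes in p62KO and 54.3% in WT.

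The largest difference between the responses was that of Rptor, 0.64 ± 0.337 (adjusted p = 0.708; 95% interval -0.130 to 1.41), with 0.44 ± 0.238 in p62KO and -0.20 ± 0.239 in WT cells. It rested on p62KO calcipotriol replicate 2. When the other library of that group, replicate 1, was left out, the p62KO response was 0.76 for Rptor and 0.87 for Keap1. For Nfe2l2 it was -0.48, for Prkci -0.56 and for Tax1bp1 -0.89. The difference between the responses was then 0.95 for Rptor, 0.62 for Keap1 and -0.86 for Tax1bp1. That fit leaves 1 library in the group, so these are effect sizes only. Vdr, the receptor of calcipotriol, stood at 22.8 ± 4.55 CPM with calcipotriol and 12.8 ± 3.74 CPM with vehicle in p62KO cells (0.83 ± 0.252, adjusted p = 0.361), and at 30.2 ± 0.194 and 15.4 ± 0.225 CPM in WT cells (0.97 ± 0.254, adjusted p = 1; SD, n = 2 each). Its partner gene Rxrb was higher in p62KO than in WT cells with calcipotriol (0.78 ± 0.207, adjusted p = 0.0335).

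The genes whose profile over the libraries lay closest to that of Sqstm1 were found by the root-mean-square (RMS) difference of centred log2 CPM. Genes that averaged 5 CPM or more in 1 genotype were considered. The Sqstm1 profile is mainly the knockout itself, so this measure picks the genes that were far lower in p62KO and shows no further tie to Sqstm1. In the 6 liver libraries they were 2610507I01Rik (RMS 1.70), the hepcidin gene Hamp2 (2.38) and the securin gene Pttg1 (2.52), against a median of 4.10 over 9973 genes. 2610507I01Rik averaged 0.406 CPM in p62KO and 14.3 CPM in WT livers. It lies at chr11:59199836-59202385 and Pttg1 at chr11:43420250-43426251, on either side of Sqstm1 (chr11:50199366-50210827). The part of this position in their levels was not tested. In the 8 stellate cell libraries they were the transcription factor genes Ebf3 (1.03) and Barx1 (1.17) and the cholecystokinin gene Cck (1.69), against a median of 4.67 over 10393 genes. Ebf3 averaged 0.160 CPM in the 4 p62KO libraries and 36.5 CPM in the 4 WT libraries, Barx1 0 and 14.4 CPM, and Cck 0.541 and 30.2 CPM. No gene was among the closest 3 in both liver and stellate cells.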

How the data were processed

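The authors deposited 2 tables of whole-number counts per gene symbol, 1 for liver and 1 for stellate cells; these counts were used as deposited. Per the labels' protocols, libraries were made from polyadenylated RNA with a directional kit and read as single ends of 75 bases. The submitters' processing notes name the build mm10, and no aligner, counter or annotation is given in the sources used here. Positions and exon lengths came from the GENCODE M21 annotation of GRCm38, which matched 98.4% of 23420 symbols, and promoters from RefSeq (GRCm38.p6).

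Genes were tested in R 4.3.3 with edgeR 4.0.16 (TMM scaling, filterByExpr, glmQLFit and glmQLFTest), two-sided, with Benjamini-Hochberg adjustment over all tested genes and a threshold of 0.05. Liver (6 libraries) and stellate cells (8 libraries) were fitted separately, and the 4 stellate cell groups share an estimate of the spread. The SE was derived from the F statistic, and intervals are 95% and approximate. In all 6 comparisons were made: p62KO with WT in liver and under each treatment, calcipotriol with vehicle in both genotypes, and the responses of the 2 genotypes with each other. On simulated counts with 200 changed genes the fit recovered 53% of 2-fold and 88% of 4-fold changes in liver. In vehicle-treated cells it recovered 22% and 82%. Of its calls 9% in liver and 8.8% in vehicle-treated cells were false, above the nominal 5%. In the data 1020 and 1634 genes passed there, and the adjusted p depends on how many genes change. These rates therefore describe the simulated setting and not the fits of the data.

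The 10 genes and the 8 partner lists were chosen with earlier results of these data known. All 10 were named. From each list and comparison, up to 3 passing genes per direction with the smallest p were eligible, or the 1 gene with the smallest p where none passed, and the 3 genes most like Sqstm1 in each tissue. Alternatives were DESeq2 1.42.0, RLE size factors, no filter, each library left out, a replicate block, chromosome medians removed, only the libraries compared, and both doubted libraries left out. Shares were recomputed without length correction and with the longest transcript.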

Additional observations from a re-analysis of the deposited data

Results flagged for a closer look

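For some genes, every p62KO liver stood on one side of the WT livers and every p62KO stellate cell library on the opposite side of its WT libraries. The difference between liver and stellate cells was not tested, because the tables were fitted separately. The genes were picked for this pattern, and how many of all genes show it was not counted. Of all tested genes 37.6% separated the genotypes in liver, and 37.0% separated all 4 p62KO from all 4 WT stellate cell libraries. Log2 fold changes are given for p62KO against WT. Those that passed were Nqo1 and G6pdx in liver, and Nqo1, Lamtor2 and Nfkbia with vehicle. With calcipotriol Nfe2l2, Lamtor2, Lamtor5 and Fkbp8 passed, and the other values below did not pass.

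Nfe2l2, the NRF2 gene, stood at 0.33 in liver, -0.89 in stellate cells with calcipotriol and -0.56 with vehicle, and Keap1, the gene of its inhibitor, at -0.19, 0.57 and 0.28 in the same order. The NRF2 target Nqo1 stood at -1.07 in liver, 0.79 with calcipotriol and 2.06 with vehicle. In levels, Nqo1 averaged 9.61 ± 0.569 CPM in p62KO and 20.1 ± 5.32 CPM in WT livers (SD, n = 3 each), and 68.6 ± 30.4 CPM in p62KO and 16.4 ± 0.595 CPM in WT cells with vehicle (SD, n = 2 each). G6pdx, of the pentose phosphate pathway, went the other way, at 1.02 in liver, -0.64 with calcipotriol and -0.60 with vehicle.

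Among the mTORC1 genes, the Ragulator subunit Lamtor2 stood at -0.46 in liver, 0.82 with calcipotriol and 1.09 with vehicle, and Lamtor5 at -0.33, 0.62 and 0.49. The mitophagy receptor gene Fkbp8 stood at -0.28 in liver, 0.95 with calcipotriol and 0.67 with vehicle. The NF-kB inhibitor gene Nfkbia stood at -0.25, 0.81 and 1.69, and the polarity gene Pard6a, which encodes a PB1-domain partner of atypical protein kinase C, at -0.57, 1.03 and 1.15. Pard6a was scarce in liver, at 1.32 to 2.31 CPM in p62KO and 2.51 to 2.94 CPM in WT.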

How the results depend on the processing

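Of 840 values of the 10 genes under an alternative, 777 kept their sign and side of the threshold, 35 changed sign with neither value past it, 5 lost a call and 23 gained one. All 5 lost calls were those of Nfe2l2 with calcipotriol.

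Liver gave 1020 genes, against 2442 with DESeq2, 639 with the replicate block and 3 to 3669 with 1 library left out. p62KO against WT with calcipotriol gave 2509 genes, against 5606 without both doubted libraries, 1445 with chromosome medians removed, 1293 in the fit of only its 4 libraries and 272 to 6052 with 1 library left out; the 10 genes gave 2 calls, against 4 without both, 1 in the fit of 4 and 1 to 8. With vehicle the count was 1634, against 5459 without both, 1019 with chromosome medians removed and 238 to 3635; the 10 genes gave 1 call, against 3, 2 and 1 to 2, and 2 in the fit of only its 4 libraries. Calcipotriol against vehicle in p62KO gave 0 genes, against 53 with DESeq2, 6 without the filter, 5 without both and 0 to 4559, with 0 to 5 of the 10 genes. In WT it gave 0 genes, against 16, 3 and 283 under the same settings, 345 in the fit of its 4 libraries, and 0 with any library left out. The difference between responses gave 0, and 0 to 2514 genes and 0 to 3 of the 10 with 1 library left out; the causes were not tested.

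Without length correction the Sqstm1 share was 0.298% in p62KO livers, 46.2% in WT livers, 50.0% in WT cells with calcipotriol and 49.5% with vehicle, and with the longest transcript 0.436%, 55.3%, 60.7% and 60.4%. With 1 library left out it ran from 0.519 to 0.661% in p62KO and 61.4 to 64.6% in WT livers, from 0.191 to 0.538% in p62KO and 69.0 to 70.2% in WT with calcipotriol, and from 0.148 to 0.481% in p62KO and 69.6 to 69.6% in WT with vehicle.

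Some same-numbered libraries deviated together and others did not (r between -0.191 and 0.192 for liver pairs and between -0.148 and 0.433 for stellate cell pairs). Since not every r was above 0.1 and no label says what a number marks, the numbers were not taken as pairs. The replicate block gave 2323 genes with calcipotriol, 1377 with vehicle and 0 for both responses, and it changed no call of the 10 genes. Of the named list genes, it ended the calls of Gstm1 (adjusted p = 0.057) and Lamtor4 (0.0619) in liver, of Fkbp8, Stbd1, Lamtor2 and Lamtor5 with calcipotriol (0.0531 to 0.0591), and of Bach1, Nfkbia and Lamtor3 with vehicle (0.0516 to 0.0592). Because one r in p62KO cells was -0.148, crossed numbers were tried after seeing the data, and gave 0 genes.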
